A study of Homo sapiens with 18 samples.

Results

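The comparison described here sets 3 libraries labelled as grown without doxycycline for 9 days against 3 libraries labelled as kept on it, all from 1 engineered HAP1 line. HAP1 is a human line with close to 1 copy of each chromosome, descended from the leukaemia line KBM-7. The engineered line lacks its own SARS2 gene and carries a SARS2 transgene with a single FLAG tag. Doxycycline, given at 15 ng/mL, is the drug that such transgenes are built to respond to, so its removal is the step meant to switch SARS2 off. The 6 libraries were chosen by these labels from 18 in all, and all 21615 genes with enough counts, of 59251 counted, were compared. The other libraries were 3 each of the same line labelled day 3 and day 6, and 3 each of the unmodified parental line with and without doxycycline. Both groups compared thus share the deletion and the transgene and differ in the label for drug and time. The sources used here do not give how many clones the line represents, which promoter drives the transgene or how the deletion was made. Nothing in the labels says that replicates were separate cultures, so every p-value here measures the spread between these libraries, which may be technical.

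SARS2 is the mitochondrial seryl-tRNA synthetase: it joins serine to the transfer RNAs that the mitochondrial ribosome uses to make subunits of the respiratory chain. Cells that cannot make these subunits are known to signal to the cytosol through the protease OMA1, its substrate DELE1 and the kinase HRI, which phosphorylates the initiation factor eIF2. General translation then slows while the transcription factor ATF4 is made and switches on genes for amino acid uptake, amino acid synthesis and stress.

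Totals of the 6 libraries ran from 66850705 to 111123481 counts, with 25062 to 26264 genes detected in each. On the first principal component of all 18 libraries, which held 35.5% of the variance, the libraries labelled day 9 lay at 72.3, 81.2 and 83.5 and those on doxycycline at −8.23, −5.82 and 12.2. Those of the same line labelled day 3 lay at 33, 40.2 and 40.9. Those labelled day 6 lay at −29.7, −50.7 and −39.3, on the other side of the doxycycline libraries. Levels are CPM, for which counts were divided by the library total after TMM scaling, given in the order of replicates 1, 2 and 3. Changes are log2 fold changes of day 9 over doxycycline with their standard error (SE), from edgeR's quasi-likelihood test with Benjamini-Hochberg adjustment over all genes tested. A gene rose or fell when its adjusted p was under 0.05. The deposited counts are 0 for all 37 mitochondrially encoded genes, so the messenger RNAs that SARS2 serves were not measured.

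Counts of SARS2 (chromosome 19, 38915266 to 38930763, minus strand, GRCh38) did not fall with the label. SARS2 stood at 43.3, 34 and 48.1 CPM in the 3 libraries labelled day 9 and at 23.5, 25.2 and 23.9 CPM with doxycycline. All 3 libraries labelled day 9 lay above all 3 with the drug (log2 fold change 0.79 ± 0.10 SE, adjusted p = 2.67e-06), and leaving out any 1 of the 6 gave 0.67 to 0.92, each passing. The series describes SARS2 as depleted once the drug is withdrawn, so the gene goes against the label; the groups are therefore called here the libraries labelled day 9 and the doxycycline libraries, and every direction rests on those labels. At the label of day 6 SARS2 did not rise against the same doxycycline libraries: of the 9 genes of SARS2 and its neighbours, 0 rose and 2 fell. The level of SARS2 at the labels of day 3 and day 6 is not given here. Reads of the transgene and of any RNA left from the deleted locus fall on the same gene and cannot be told apart. In bulk RNA, more cells carrying a transcript and more transcript per cell cannot be told apart either, here and in every result that follows.

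Across all genes, 10027 of 21615 (46.4%) passed, 4877 higher (22.6%) and 5150 lower (23.8%). The median change of all genes was −0.0097 on the log2 scale. Many changes were small. The median size among genes that passed was 0.59, and 2283 of the rises and 1858 of the falls were under 0.5 (log2), with a median SE over all genes of 0.15. At least 2-fold were 1069 rises and 1613 falls, and at least 4-fold 319 and 427. The 3 libraries labelled day 9 lay wholly above the doxycycline libraries for 5410 genes (25%) and wholly below for 5582 (25.8%), 50.9% together. The counts of list members that follow are read against these shares. Among protein-coding genes alone, which make up most lists, 27.7% rose and 26% fell.

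**Figure D1:**
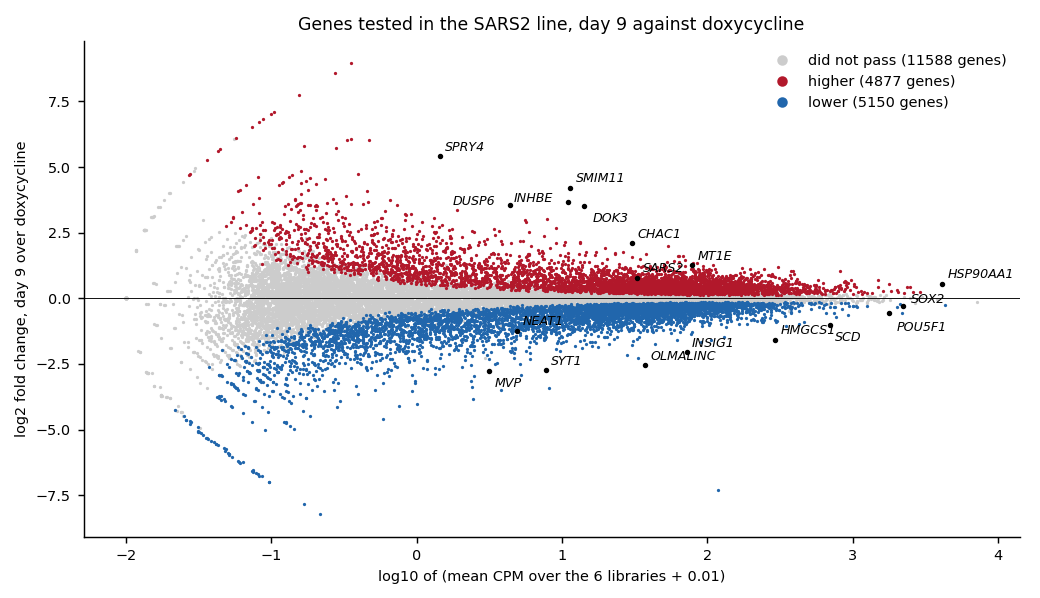
Log2 fold change of day 9 over doxycycline for each of the 21615 genes tested against its mean level over the 6 libraries (log10 of CPM + 0.01), coloured by whether it rose, fell or did not pass at an adjusted p of 0.05. The 4877 rises and 5150 falls lie on both sides of a median of −0.0097, and the smaller changes pass where the level is high.

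Of the genes beside SARS2 on chromosome 19, 3 of 9 tested rose and 3 fell, SARS2 itself included. MRPS12, a mitochondrial ribosomal protein gene whose start lies 181 bases from that of SARS2 on the other strand, was at 49.5, 49 and 69.6 CPM and at 41.4, 39.4 and 49 with doxycycline; the lowest library labelled day 9 lay just above the highest with the drug (log2 fold change 0.37 ± 0.14 SE, adjusted p = 0.0382). That call was lost at 0.19 without day 9 replicate 3, 0.34 without doxycycline replicate 1 and 0.31 without doxycycline replicate 2. It was also lost with these 6 libraries fitted alone (0.37), library size alone (0.31) and the span and length trend removed (0.26). NFKBIB, an inhibitor of NF-kB, rose from 50.8 ± 3.07 to 72.8 ± 11.3 CPM (mean ± SD, n = 3; 0.52 ± 0.13, adjusted p = 0.0036). RINL, a guanine nucleotide exchange factor gene, fell (−0.57 ± 0.14, adjusted p = 0.00259). SIRT2, a deacetylase (−0.20, lost at −0.16 without day 9 replicate 3 and −0.17 without doxycycline replicate 1), and FBXO17, an F-box gene (−2.62, lost at −2.27 without day 9 replicate 2 and −1.86 without doxycycline replicate 2), fell less stably, and CCER2, FBXO27 and HNRNPL did not pass (adjusted p = 0.832, 0.117 and 0.189). In other fits FBXO27, at −0.54 here, passed (−0.53, adjusted p = 0.0179 with no filter on low counts; −1.13, adjusted p = 0.000227 without day 9 replicate 2), and so did HNRNPL, at −0.14 here (−0.20, adjusted p = 0.0336 with library size alone as the scaling; −0.27, adjusted p = 0.0197 with the span and length trend removed; −0.21, adjusted p = 0.0436 without day 9 replicate 3). SIRT2 also lost its call at −0.20 with these 6 libraries fitted alone and at −0.19 with no filter on low counts. The sources used here do not say whether counting used the strand, so reads shared by SARS2 and MRPS12 cannot be told apart.

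**Figure D2:**
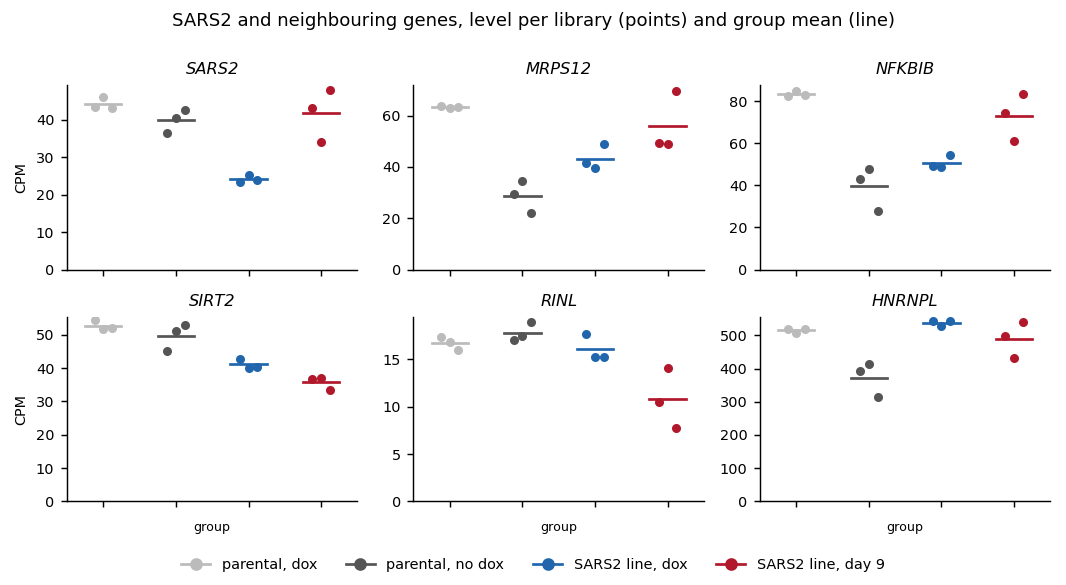
Levels of SARS2 and its neighbours on chromosome 19 in CPM (linear axes from 0), 1 point per library and a line at each group mean, for the engineered line with doxycycline and labelled day 9 and for the parental line with and without the drug. SARS2 lies at 43.3, 34 and 48.1 CPM at day 9, above 23.5, 25.2 and 23.9 CPM with doxycycline.

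Most targets of ATF4 rose. Of 21 stress regulators and secreted factors among them, 18 rose and 2 fell (median 1.01), of 14 amino acid transporters 11 rose and 1 fell (median 0.51), and of 16 genes of amino acid and one-carbon synthesis 9 rose and 1 fell (median 0.20). With 1 library left out, the rises and falls of the transporters numbered 12 and 0 without day 9 replicate 2, 10 and 0 without doxycycline replicate 1 or doxycycline replicate 2, and those of the synthesis genes 9 and 2 without day 9 replicate 3 or doxycycline replicate 3. INHBE, which encodes the hormone subunit inhibin beta E, was at 18.3, 32.3 and 10.5 CPM in the libraries labelled day 9 and 1.8, 1.24 and 1.75 with doxycycline (log2 fold change 3.67 ± 0.29 SE, adjusted p = 2.20e-08). The groups were far apart, with replicate 2 highest. GDF15, a cytokine released by stressed cells, was at 2.65, 5.75 and 1.79 and 0.828, 0.676 and 0.503 CPM (2.33 ± 0.33, adjusted p = 1.14e-05), with no overlap. CHAC1, an enzyme that breaks down glutathione, was at 46.4, 60.9 and 39.8 and 10.9, 10.2 and 13.2 CPM (2.10 ± 0.13, adjusted p = 1.68e-09). TRIB3, a pseudokinase that restrains ATF4 (1.37), VEGFA, the growth factor of blood vessels (0.87), and PPP1R15A, the phosphatase subunit that reverses eIF2 phosphorylation (0.75), rose too. The 2 that fell were KLHL24, a ubiquitin ligase adaptor (−1.57), and BBC3, which encodes the death factor PUMA (−0.92). The member that did not pass was FGF21, a hormone, which was at 0 in 5 of the 6 libraries and at 0.0593 CPM in the other (adjusted p = 0.142).

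Transport and synthesis moved unequally. SLC1A4, a carrier of serine and alanine, was at 51.1, 58.5 and 47 CPM at day 9 and 23.1, 21.8 and 25.5 with doxycycline (log2 fold change 1.16 ± 0.094 SE, adjusted p = 2.76e-08). SLC3A2, the heavy chain shared by several amino acid exchangers (0.90), and SLC7A3, a carrier of cationic amino acids (0.92), rose. SLC7A11, the cystine carrier, did not pass (0.26 ± 0.15, adjusted p = 0.167) with all libraries in the fit and passed in others (0.27, adjusted p = 0.00403 with no filter on low counts; 0.44, adjusted p = 0.00784 with the span and length trend removed; 0.44, adjusted p = 0.0139 without day 9 replicate 2). Of the serine pathway, PHGDH, the first enzyme (0.26), and PSAT1, the second (0.90), rose, and PSPH, the last, named after its value was seen, passed at 0.17 but lost the call in 7 of 14 alternatives, among them 0.16 without day 9 replicate 1, 0.16 without day 9 replicate 2 and 0.13 without doxycycline replicate 2. SHMT2, which passes carbon from serine to folate in mitochondria (0.91), and GPT2, the mitochondrial alanine transaminase (0.84), rose too. ASNS, which makes asparagine (−0.39 ± 0.20, adjusted p = 0.114), MTHFD2, the mitochondrial folate enzyme (−0.081 ± 0.089, adjusted p = 0.488), and CTH, which makes cysteine (−0.064 ± 0.074, adjusted p = 0.512), did not pass; these 3 were singled out after their values were seen. ASNS passed as a fall in other fits (−0.38, adjusted p = 0.0444 with no filter on low counts; −0.57, adjusted p = 0.0214 without doxycycline replicate 3), and so did MTHFD2 (−0.24, adjusted p = 0.00552 without day 9 replicate 3). ALDH1L2, a mitochondrial folate enzyme, fell from 1.03, 0.799 and 1.08 to 0.42, 0.147 and 0.366 CPM (log2 fold change −1.64 ± 0.30 SE, adjusted p = 0.000212), against the direction of its list.

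ATF4 binds with partners of the C/EBP family at an element often written TGATGNAA. Because the rises above are of its targets, the window of each gene from 250 bases before to 50 after the start (RefSeq, GRCh38.p14, 27305 windows of 300 bases) was searched for these letters on both strands. The 3 lists held it in 3 of 18, 3 of 12 and 4 of 11 windows found, against 3.67% of all windows and 1.87% of those of tested genes; across genes that rose the share was 1.96% and across genes that fell 1.74%. List members that did not pass, ASNS (−0.39) and FGF21 among them, held the letters too. Examples are given only from members that passed. They are a gene with a large rise, CHAC1, and a transcription factor of the list, ATF3 (0.60 ± 0.12, adjusted p = 0.000388). The match is in capitals, and CHAC1 matches on the opposite strand.
CHAC1 (chr15:40953236-40953295, plus strand): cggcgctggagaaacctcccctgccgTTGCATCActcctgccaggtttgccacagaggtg
ATF3 (chr1:212565190-212565249, plus strand): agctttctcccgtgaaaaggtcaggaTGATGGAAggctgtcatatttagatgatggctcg
A match is a description of the letters, and genes without one may carry the element elsewhere.

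Upstream of ATF4, members moved in both directions. Of 19 genes for eIF2 kinases, the OMA1-DELE1 relay and the phosphatase, 9 rose and 5 fell, or 8 and 3 without day 9 replicate 1, 9 and 3 without day 9 replicate 2, 5 and 5 without day 9 replicate 3, 6 and 3 without doxycycline replicate 2. ATF4 itself, which is controlled mainly in translation, was at 429, 438 and 479.5 against 401, 400.1 and 399.9 CPM (0.17 ± 0.06, adjusted p = 0.0291), a call lost at 0.12 without day 9 replicate 3, 0.17 without doxycycline replicate 1, 0.17 without doxycycline replicate 2 and 0.16 without doxycycline replicate 3, and also at 0.076 (adjusted p = 0.399) with the trend over gene span and length removed and at 0.10 with library size alone as the scaling. The rises included EIF2B4 (0.75) and EIF2B1 (0.64), subunits of the exchange factor that eIF2 phosphorylation blocks, and the falls OMA1 (−0.40) and IMPACT (−0.54), an inhibitor of the kinase GCN2. Of 20 cytosolic tRNA synthetases, several of which ATF4 controls, 11 rose and none fell, or 11 and 2 without day 9 replicate 3. WARS1, for tryptophan, rose from 144, 131 and 155 to 278, 292 and 273 CPM (0.97 ± 0.072, adjusted p = 8.94e-09), and FARSA, for phenylalanine, by 0.83.

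Genes that ERK kinase signalling is known to induce rose as well. Growth factor receptors activate ERK through RAS and RAF, and ERK then induces transcription factors such as EGR1 and the ETV family along with its own inhibitors, the Sprouty proteins and the dual-specificity phosphatases. Of 17 such genes 13 rose, 1 fell and 3 did not pass (median 0.95). Rises and falls numbered 13 and 2 without doxycycline replicate 3. DUSP6, the phosphatase that removes the activating phosphates from ERK (chromosome 12, 89347235 to 89352501, minus strand), was at 5.82, 5.7 and 12.7 CPM in the libraries labelled day 9 and 0.649, 0.725 and 0.686 with doxycycline (log2 fold change 3.56 ± 0.34 SE, adjusted p = 1.67e-07). The groups were wide apart, with day 9 replicate 3 the highest. SPRY4, a Sprouty inhibitor chosen after its values were seen, was at 2.75, 2.3 and 3.31 CPM and close to 0 with doxycycline (0, 0.16 and 0.0305; log2 fold change 5.42 ± 0.69 SE, adjusted p = 3.79e-06).

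Of the transcription factors of the group, ETV1, ETV4, ETV5, EGR1 and FOSL1 rose and FOS did not pass. ETV4 was at 20.7, 16.1 and 28.3 CPM at day 9 and 5.15, 5.29 and 4.63 with doxycycline (log2 fold change 2.11 ± 0.16 SE, adjusted p = 8.85e-09). ETV5 was at 4.93, 5.22 and 7.28 and 0.806, 1.02 and 0.96 CPM (2.65 ± 0.28, adjusted p = 4.66e-07), and ETV1 rose by 1.65. EGR1, an immediate-early factor, was at 20, 19 and 26.5 and 4.41, 6.04 and 4.31 CPM (2.15 ± 0.22, adjusted p = 2.99e-07). In each of these the groups did not overlap. FOSL1 was at 16.4, 13.2 and 22.9 and 8.25, 9.22 and 9.78 CPM (0.95 ± 0.17, adjusted p = 0.000134), and FOS at 2.29, 2.42 and 2.94 and 4.5, 5.22 and 1.92 CPM, with overlap (−0.61 ± 0.29, adjusted p = 0.0912; but −0.60, adjusted p = 0.00983 with no filter on low counts; −0.93, adjusted p = 0.00486 without doxycycline replicate 3); both were named after their values were seen. DUSP5, which acts on nuclear ERK, rose by 1.47 and SPRY2 by 0.48, while DUSP4 did not pass (0.27 ± 0.11, adjusted p = 0.0525) except in other fits (0.28, adjusted p = 0.0479 with RLE scaling; 0.28, adjusted p = 0.0243 by DESeq2; 0.36, adjusted p = 0.0305 without doxycycline replicate 1); these 3 were named after their values were seen. IER3 was the member that fell (−0.81 ± 0.15, adjusted p = 0.000251; 5.28 ± 0.453 to 3.02 ± 0.744 CPM). At the 2 earlier labels, which share the doxycycline libraries, DUSP6 was at 1.02 ± 0.314 CPM at day 3 and 0.947 ± 0.365 at day 6 (n = 3), and ETV4 at 5.76 ± 0.343 and 6.54 ± 0.581, so that both were highest at the label of day 9.

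**Figure D3:**
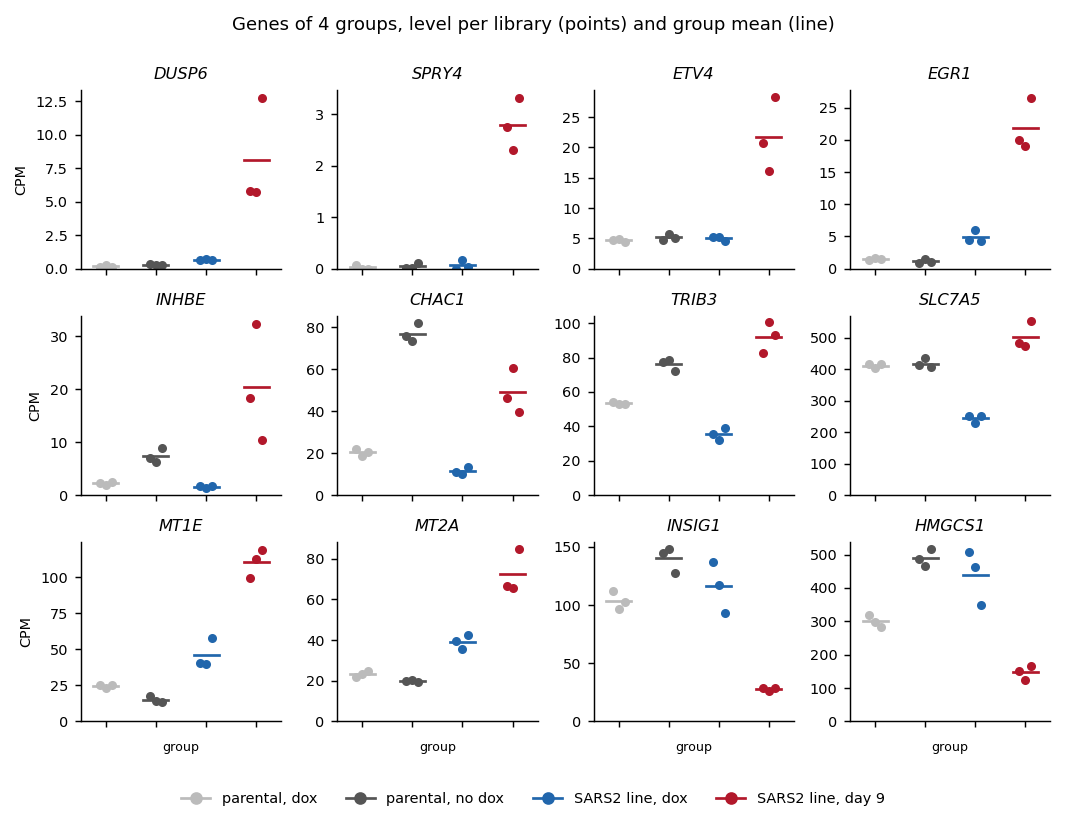
Levels in CPM (linear axes from 0) of 12 genes of the ERK, ATF4, metallothionein and cholesterol groups, 1 point per library and a line at each group mean, for both lines. CHAC1, DUSP6, ETV4 and MT2A sit higher and INSIG1 and HMGCS1 lower in all 3 libraries labelled day 9 than in the 3 of the same line on doxycycline.

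Metallothioneins, small cysteine-rich proteins that hold zinc and copper, rose. Of 11 genes listed, with the zinc exporter SLC30A1, 6 passed the filter on low counts and all 6 of those rose (median 1.04). MT1E was at 99.4, 113 and 119 CPM at day 9 and 40.4, 39.6 and 57.8 with doxycycline (log2 fold change 1.27 ± 0.13 SE, adjusted p = 3.99e-07). MT2A (chromosome 16, 56608584 to 56609497, plus strand) was at 66.7, 65.6 and 84.8 and 39.4, 35.4 and 42.6 CPM (0.89 ± 0.10, adjusted p = 6.85e-07), and MT1X at 33.6, 31.3 and 32.5 and 15, 13 and 18.8 (1.06 ± 0.13, adjusted p = 1.84e-06). The groups did not overlap in these 3. MT1F rose by 1.25, MT1M by 1.03 and SLC30A1, which pumps zinc out of the cell, by 0.95. The family's messages are near-identical, so reads may be split between them and the single values are uncertain.

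Metallothionein genes are switched on by the zinc-sensing factor MTF1, whose metal response element has the core TGCACNC or TGCGCNC. These letters are common: 29.35% of all windows and 37.79% of those of tested genes hold them on either strand, and so did 5 of 5 windows found for this list. The 250 bases before the start of MT2A are shown because they hold 7 of the 8 matches in its window, in capitals.
MT2A (chr16:56608334-56608583, plus strand): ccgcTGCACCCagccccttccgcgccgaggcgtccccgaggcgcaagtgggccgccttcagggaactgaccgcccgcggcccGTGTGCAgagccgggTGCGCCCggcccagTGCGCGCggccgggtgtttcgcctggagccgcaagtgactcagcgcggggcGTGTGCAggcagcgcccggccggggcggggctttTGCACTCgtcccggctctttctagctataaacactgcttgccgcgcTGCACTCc

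Genes of the oxidative stress factor NRF2 moved less evenly. Of 18, 10 rose and 2 fell (median 0.35), or 10 and 1 without day 9 replicate 1 or doxycycline replicate 1 or doxycycline replicate 2, 11 and 1 without day 9 replicate 2, 10 and 4 without day 9 replicate 3. ABCC2, an export pump, was at 1.12, 1.39 and 0.682 CPM and 0.246, 0.197 and 0.274 with doxycycline (2.15 ± 0.35, adjusted p = 4.96e-05). OSGIN1 (0.99), GCLM, the modifier subunit of the enzyme that starts glutathione synthesis (0.57), and FTH1, the ferritin heavy chain (0.53), rose, while GCLC, the catalytic subunit beside GCLM, fell (−0.31).

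In each of 3 lists for protein folding and quality control, more members rose than fell. Of 20 genes of the endoplasmic reticulum's unfolded protein response 10 rose and 2 fell, or 10 and 1 without day 9 replicate 2, 9 and 1 without doxycycline replicate 1 or doxycycline replicate 2. Of 18 mitochondrial chaperones and proteases 7 rose and none fell, or 9 and 2 without day 9 replicate 2, 6 and 1 without day 9 replicate 3, 7 and 1 without doxycycline replicate 3, and of 13 cytosolic heat shock genes 6 rose and 1 fell. Of these, HERPUD1, a degradation factor, went from 29.3, 23.9 and 23.8 to 40.1, 46 and 42.4 CPM (0.74 ± 0.10, adjusted p = 1.04e-05), and the chaperone HYOU1 rose by 0.68, while ERN1, the sensor IRE1, fell (−0.65). In mitochondria, LONP1, the matrix protease, went from 278, 267 and 289 to 461, 489 and 461 CPM (0.76 ± 0.066, adjusted p = 5.78e-08) and HSPA9, the matrix HSP70, rose by 0.61. HSPD1, the chaperonin, rose by 0.27. HSPE1, its co-chaperonin, did not pass (0.25 ± 0.18, adjusted p = 0.264), but did with no filter on low counts (0.26, adjusted p = 0.0473). In the cytosol HSP90AA1 went from 3101, 3113 and 3775 to 4957, 4579 and 5195 CPM (0.56 ± 0.09, adjusted p = 4.77e-05). HSPA8, a constitutive HSP70, overlapped between groups (1902, 1336 and 3108 against 1282, 1343 and 1729 CPM; 0.54), and its call was lost at 0.61 without day 9 replicate 1, 0.16 without day 9 replicate 3, 0.46 without doxycycline replicate 1 and 0.49 without doxycycline replicate 2. The call of HSPA8 was also lost with these 6 libraries fitted alone (0.54), library size alone (0.47), DESeq2 (0.55) and the trend removed (0.46). Of 21 genes for mitochondrial fission, fusion and protein import 11 rose and 5 fell. The import channel gene TOMM40 rose by 0.84 and TIMM44, of the import motor, by 0.69, and the fusion gene OPA1 fell (−0.34).

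Of the nuclear genes for the mitochondrial ribosome 46 of 80 did not pass, of complex I 23 of 37, and of complexes II to V 28 of 41, beside 11588 of all 21615 genes. Of 80 mitochondrial ribosome genes 31 rose and 3 fell (median 0.18), or 29 and 1 without day 9 replicate 1, 32 and 1 without day 9 replicate 2, 21 and 6 without day 9 replicate 3, 22 and 1 without doxycycline replicate 2, 35 and 1 without doxycycline replicate 3. The share higher was 38.8%, against 22.6% of all genes and 27.7% of protein-coding genes. MRPS2, of the small subunit, rose (0.62 ± 0.086, adjusted p = 8.88e-06). Of 37 complex I genes 13 rose and 1 fell, or 11 and 0 without day 9 replicate 1, 11 and 5 without day 9 replicate 3, 15 and 0 without doxycycline replicate 3; NDUFC2 rose by 0.81 and NDUFS3 by 0.53. Of 41 genes of complexes II to V 8 rose and 5 fell, or 6 and 3 without day 9 replicate 1, 4 and 5 without day 9 replicate 3, 2 and 7 without doxycycline replicate 1, 2 and 4 without doxycycline replicate 2, 11 and 2 without doxycycline replicate 3, with changes of −0.36 to 0.27. The balance of complexes II to V was not stable under other settings: 3 rose and 9 fell with library size alone as the scaling, 5 and 8 with the trend over gene span and length removed, and 3 and 3 with these 6 libraries fitted alone. Of the mitochondrial ribosome and complex I, 7 genes each fell with library size alone. Among the 17 mitochondrial tRNA synthetases, SARS2's own family, 8 rose and 5 fell, or 5 and 5 without doxycycline replicate 2, 5 and 3 with the trend removed and 5 and 5 with library size alone. AARS2, the alanine enzyme, was at 72.7, 70.1 and 74.9 CPM and 45, 42.9 and 50.4 with doxycycline (0.65 ± 0.094, adjusted p = 1.49e-05), and the arginine and asparagine enzymes RARS2 (−0.41) and NARS2 (−0.41) fell. Of 27 factors for mitochondrial DNA, transcription and translation, 12 rose, such as MTRF1L (0.81), a release factor, and the helicase TWNK (0.64), and 4 fell, with 8 falls under library size alone.

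Most lipid synthesis genes fell. Cholesterol synthesis and uptake are controlled by SREBF2, a factor that is cleaved and enters the nucleus when membrane sterol is low, and its relative SREBF1 controls fatty acid synthesis. Of 23 cholesterol genes 16 fell and 1 rose (median −0.67), against 23.8% of all genes lower, and rises and falls numbered 0 and 16 without day 9 replicate 1 or day 9 replicate 2 or doxycycline replicate 1 or doxycycline replicate 2. INSIG1, which holds the SREBF proteins back when sterol is high, was at 28.5, 26 and 29 CPM at day 9 and 137, 118 and 93.2 with doxycycline (log2 fold change −2.06 ± 0.21 SE, adjusted p = 3.22e-07). HMGCS1, an early enzyme of the pathway, was at 152, 123 and 167 and 506, 461 and 348 CPM (−1.57 ± 0.20, adjusted p = 4.35e-06). In both, every library labelled day 9 lay below every doxycycline library. MSMO1, which removes methyl groups from lanosterol products (−1.60), FDFT1, the squalene synthase (−1.06), and, named after its values were seen, SQLE, the squalene epoxidase (−0.81), fell. TM7SF2, a sterol reductase and the single member that rose (0.39), was not stable, at 0.34 without day 9 replicate 1, 0.20 without day 9 replicate 2, 0.33 without doxycycline replicate 1 and 0.36 without doxycycline replicate 2. Its call was also lost with these 6 libraries fitted alone (0.39), library size alone (0.34), the filter of 1 CPM (0.38) and a replicate block (0.37).

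SREBF2 itself fell from 408, 380.1 and 323 to 209, 206 and 216 CPM (−0.81 ± 0.094, adjusted p = 1.33e-06), and SREBF1 fell too (−0.86). The sterol regulatory element TCACNCCAC was found on either strand in 1 of 18 cholesterol windows and 0 of 12 fatty acid windows, against 1.15% of all windows. The 1 window is that of SREBF2, shown with the match in capitals.
SREBF2 (chr22:41832946-41833006, plus strand): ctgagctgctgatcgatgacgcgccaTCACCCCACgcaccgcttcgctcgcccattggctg

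Of 12 fatty acid genes 8 fell and 1 rose (median −0.48), and rises and falls numbered 0 and 7 without day 9 replicate 3 or doxycycline replicate 2. SCD, which puts a double bond into stearate, was at 444, 450.5 and 490.2 CPM and 1006, 944 and 824 with doxycycline (log2 fold change −1.002 ± 0.12 SE, adjusted p = 1.26e-06), among the 5 largest losses in mean CPM. ACACA, the enzyme of the committed step (−0.89), ACSL3 (−0.70) and ELOVL6 (−0.66) fell, and FASN, which builds palmitate, did not pass (−0.13 ± 0.076, adjusted p = 0.168; but −0.23, adjusted p = 0.0133 with the span and length trend removed; −0.21, adjusted p = 0.0283 without doxycycline replicate 3; named after its value was seen).

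In carbon metabolism, genes of glycolysis and targets of the hypoxia factor HIF went different ways. Of 21 glycolysis genes 11 rose and 4 fell (median 0.29), or 11 and 2 without doxycycline replicate 1. PKM and GAPDH, 2 of the 5 largest gains in mean CPM, went from 2093 ± 139.8 to 2840 ± 96.8 and from 1994 ± 169 to 2713 ± 214 CPM (0.44 and 0.44; SE 0.067 and 0.066). SLC2A1, the glucose carrier GLUT1, rose by 0.72, and ALDOC, the brain aldolase, and SLC16A3, a lactate carrier, fell (−0.85 and −0.55). Of 18 HIF targets 2 rose and 9 fell. NDRG1 was at 2.52, 3.2 and 1.59 CPM and 7.99, 7.83 and 5.58 with doxycycline (log2 fold change −1.55 ± 0.23 SE, adjusted p = 1.99e-05), and PDK1, the kinase that closes off pyruvate dehydrogenase, at 19.3, 19.2 and 21.6 and 43.6, 42.5 and 40.3 (−1.07 ± 0.073, adjusted p = 3.91e-09). Both lay lower in every library labelled day 9. BNIP3L, a receptor for removing mitochondria (−0.91), and MXI1, an antagonist of MYC (−1.07), fell. The 2 HIF targets that rose, VEGFA and SLC2A1, are also listed as an ATF4 target and a glycolysis gene.

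The sugar-sensing factor MondoA had 2 of 6 targets higher, KLF10 (0.39) and HK2 (0.45), and its best known target TXNIP did not pass (0.20 ± 0.16, adjusted p = 0.321; 31.3, 34.1 and 21.6 against 28.1, 29.6 and 17.9 CPM), but passed in 1 fit (0.37, adjusted p = 0.0401 without day 9 replicate 3). With 1 library left out, the rises and falls numbered 4 and 0 without day 9 replicate 3. Of 23 genes of the tricarboxylic acid cycle and pyruvate entry 9 rose and 3 fell. The rises were small, such as IDH3B (0.31) and MPC1, a pyruvate carrier subunit (0.40), and SUCLG2, a subunit of succinyl-CoA ligase, fell (−0.76).

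Genes for building ribosomes mostly rose, and those for the ribosome's own proteins mostly did not pass. Of 33 biogenesis genes 26 rose and none fell (median 0.43). RRP12 was at 89.1, 63.9 and 114 CPM and 37.6, 35.9 and 39 with doxycycline (log2 fold change 1.25 ± 0.13 SE, adjusted p = 4.74e-07), with no overlap. POLR1C, shared by RNA polymerases I and III (0.91), and NOP56, of the box C/D particle (0.80), rose as well. The MYC-type E-box CACGTG lay in 11 of 26 windows found for this list, against 7.43% of all windows and 9.53% of those of tested genes. Across all genes that rose the share was 11.52% and across those that fell 8.8%. Some list members with the E-box did not pass. The list's share describes its windows and was not tested against the change. Of 79 cytosolic ribosome genes 4 rose and 19 fell, or 4 and 6 without day 9 replicate 1, 5 and 7 without day 9 replicate 2, 4 and 34 without day 9 replicate 3, 4 and 12 without doxycycline replicate 2, 7 and 5 without doxycycline replicate 3. With library size alone as the scaling the number that fell was 37. RPL13A fell in each of these fits (−0.54 with all 6 libraries). RPS10 (1.11) and RPL17 (0.63), which rose, lie in readthrough loci and are uncertain. Of 16 host genes of small nucleolar RNAs 1 rose and 8 fell, or 2 and 7 without day 9 replicate 1 or doxycycline replicate 3, 4 and 6 without day 9 replicate 2. GAS5 (−0.86 ± 0.13, adjusted p = 2.90e-05) and ZFAS1 (−0.73) were among those that fell.

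The MYC genes themselves were lower. MYC was at 774, 733 and 645 CPM at day 9 and 1190, 1197 and 995 with doxycycline (log2 fold change −0.65 ± 0.11 SE, adjusted p = 5.76e-05), MYCN fell by 0.90 and MYCL by 0.81 on the log2 scale. Their partner MAX (0.46), MLX, the partner of MondoA (0.39), and the MYC targets ODC1, for polyamines (0.70), and NME1 (0.54) rose. HAP1 arose from an attempt to reprogram KBM-7 with OCT4, SOX2, KLF4 and MYC. POU5F1, the factor OCT4, was at 1543, 1562 and 1242 CPM and 2253, 2158 and 1917 with doxycycline (−0.54 ± 0.086, adjusted p = 4.40e-05), the groups apart. KLF4, named after its value was seen, fell by 1.23 (log2; 3.98, 3.92 and 3.44 to 1.14, 2.24 and 1.45 CPM). SOX2 overlapped between the groups (2087, 2118 and 1756 against 2690, 2607 and 2096; −0.31, lost at −0.23 without day 9 replicate 3, −0.24 without doxycycline replicate 1 and −0.27 without doxycycline replicate 2). Of 18 nucleotide synthesis genes 8 rose, among them CAD, which starts the pyrimidine path (0.79), UMPS (0.70) and PFAS, of the purine path (0.80), and 4 fell, PRPS2 among them (−0.33).

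DNA replication genes mostly rose and genes of mitosis mostly did not. Of 35 replication genes 26 rose and 1 fell (median 0.27), or 23 and 0 without day 9 replicate 1 or doxycycline replicate 2, 26 and 0 without day 9 replicate 2, 24 and 0 without doxycycline replicate 1, 25 and 0 without doxycycline replicate 3. TK1, the thymidine kinase of S phase, was at 86, 92.1 and 74 CPM and 42.3, 41 and 47.1 with doxycycline (0.95 ± 0.084, adjusted p = 6.47e-08), and GINS3, of the replicative helicase, rose by 0.80. Replication genes are controlled by the E2F factors, and 16 of 30 windows found held 1 of the motifs TTTCGCGC, TTTGGCGC or TTTCCCGC on either strand, against 2.79% of all windows and 4.31% of those of tested genes. Across all genes that rose the share was 5.23% and across those that fell 4.13%. MCM6, the 1 replication gene that fell (−0.19, a call lost in 8 of 14 alternatives), held a motif too, as did some that did not pass. The stretch before POLA2, which rose and encodes a subunit of the DNA polymerase that starts new strands, is shown with the match in capitals.
POLA2 (chr11:65261883-65261942, plus strand): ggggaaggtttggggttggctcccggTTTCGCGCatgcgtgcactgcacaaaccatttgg

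Of 24 mitosis genes 1 rose and 9 fell, or 3 and 8 without day 9 replicate 2, 1 and 16 without day 9 replicate 3. UBE2C, of the complex that ends mitosis, rose (1.16 ± 0.20, adjusted p = 9.77e-05), and those that fell included CDK1, the kinase of mitotic entry (−0.39), and BUB1B, of the spindle checkpoint (−0.64). Of 17 p53 targets 7 rose and 4 fell. MDM2, which degrades p53, rose by 0.45, and DDB2, a repair gene, fell (−0.64). Of 12 replication-dependent histone genes 1 rose and 4 fell, or 1 and 1 without day 9 replicate 1, 0 and 6 without day 9 replicate 3, 1 and 2 without doxycycline replicate 1 or doxycycline replicate 2. H1-4, a linker histone, kept its fall in each of these (−1.73 ± 0.48, adjusted p = 0.00632).

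Lysosome, interferon and nuclear RNA lists moved both ways. Of 25 lysosome and autophagy genes 13 rose and 5 fell. SQSTM1, the autophagy receptor p62, was at 188, 188 and 193 CPM and 111, 99.2 and 105 with doxycycline (0.85 ± 0.063, adjusted p = 9.52e-09), and the lysosomal channel MCOLN1 rose by 0.76. WIPI1 (−0.81) and GABARAPL1 (−0.94), of autophagosome formation, fell. Of 19 interferon-inducible genes 8 rose and 3 fell, or 7 and 5 without day 9 replicate 2, 8 and 1 without doxycycline replicate 1, with IFI27 (1.74) and IFIT3 (1.34) higher and IFIH1, a sensor of double-stranded RNA, lower (−1.07). Of 8 nuclear-retained RNAs and paraspeckle proteins 3 rose and 2 fell. MEG3, a long RNA kept in the nucleus, fell from 0.269, 0.492 and 0.335 to 0.133, 0.0948 and 0.119 CPM (−1.65 ± 0.35, adjusted p = 0.000735).

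The label of the cells and the possible presence of other cells were read from marker lists. Of 15 haematopoietic markers, from the origin of HAP1, 6 passed the filter on low counts (2 rose and 1 fell, or 2 and 2 without day 9 replicate 1, 1 and 1 without day 9 replicate 3 or doxycycline replicate 1 or doxycycline replicate 3), 5 were at 0 in all 6 libraries (GATA1, HBG1, MPO and CD3E among them) and the others, PTPRC among them, reached at most 9 counts. Their summed level was 8.84 to 10.02 CPM at day 9 and 16.2 to 18.8 with doxycycline, most of it the receptor KIT, which fell (−0.99). The 6 epithelial markers tested summed to 62.9 to 73.2 CPM at day 9 and 41.5 to 45.5 with doxycycline (1 rose and 1 fell, or 2 and 1 without day 9 replicate 1 or doxycycline replicate 1, 1 and 3 without day 9 replicate 2), while the other 4, CDH1 and KRT19 among them, were at 0. The 10 mesenchymal markers tested summed to 872 to 1147 CPM at day 9 and 709 to 785 with doxycycline (6 rose and 2 fell, or 5 and 1 without day 9 replicate 1 or day 9 replicate 3 or doxycycline replicate 1 or doxycycline replicate 2), most of it VIM, the filament protein vimentin, which rose (0.44); COL1A2, LUM and DCN were at 0. The part of these markers in the results was not tested.

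**Figure D4:**
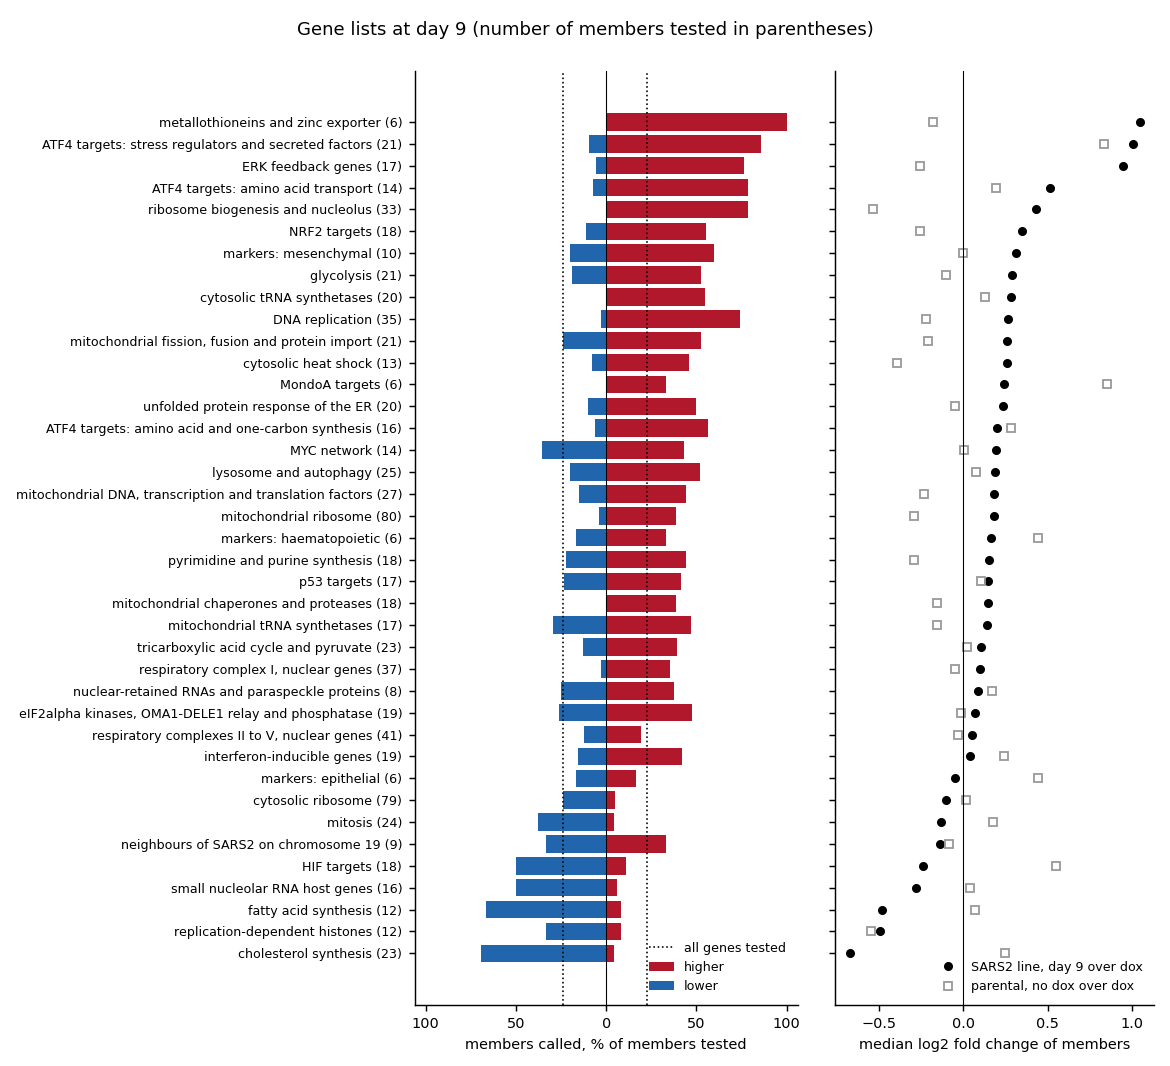
Left, the percent of each list's tested members that rose (right of 0) or fell (left of 0) at day 9 against doxycycline, with dotted lines at 22.6% and 23.8% of all genes; right, the median log2 fold change of the members at day 9 and in the parental line. The medians run from −0.67 for cholesterol synthesis to 1.04 for metallothioneins.

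Among single genes, the 15 largest rises with a mean of at least 2 CPM and no overlap between groups ran from 2.37 to 4.21, and the 15 largest falls from −3.84 to −2.45. SMIM11, a small membrane protein gene, headed the rises on the strength of 2 libraries: it was at 1.66, 40.4 and 22.8 CPM at day 9 and 1.54, 0.947 and 0.99 with doxycycline, so replicate 1 barely exceeded the drug libraries (log2 fold change 4.21 ± 0.79 SE, adjusted p = 0.00024). DOK3, an adaptor of immune receptor signalling (chromosome 5, 177501904 to 177511100, minus strand), was even across replicates, at 28.9, 22.6 and 26.7 and 1.81, 2.37 and 2.59 CPM (3.53 ± 0.21, adjusted p = 9.06e-10). AMH, the anti-Müllerian hormone, was at 15.1, 11.9 and 10.7 and 2.1, 2.98 and 2.21 CPM (2.37 ± 0.38, adjusted p = 4.90e-05). MIR22HG, the host of a microRNA (2.55), the muscle protease gene CAPN3 (2.53), TPH1, which makes serotonin's precursor (2.55), and PRR22 (2.90) were others, beside INHBE, DUSP6 and ETV5 described above. The remaining rises were the pseudogene PRKXP1 (2.97), whose reads may come from a near-identical gene, the antisense RNA NHSL1-AS1 (2.43), and the uncharacterised LOC124903631 (3.04), LOC399975 (2.69) and LOC105379384 (2.51).

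Among the falls, OLMALINC, a long non-coding RNA (chromosome 10, 100373576 to 100388354, plus strand), was at 11.8, 10.8 and 10.1 CPM at day 9 and 71.6, 68.9 and 50.1 with doxycycline (log2 fold change −2.54 ± 0.17 SE, adjusted p = 3.65e-09). SYT1, the calcium sensor of synaptic vesicles, was at 1.97, 2.38 and 1.64 and 14.9, 13.5 and 11.8 CPM (−2.75 ± 0.15, adjusted p = 4.01e-10). In both the groups were well apart. MVP, the major vault protein (−2.76), LMOD1, of smooth muscle (−2.97), PADI2, which converts arginine to citrulline (−2.56), the kinase gene PNCK (−2.52), the junction gene TJP3 (−2.50) and the splicing factor gene CELF5 (−2.45) fell too. Non-coding or uncharacterised genes among the falls were LOC112268113 (−3.84), LOC124906082 (−3.42), LINC00663 (−3.37), LOC105377548 (−3.14), LOC124906098 (−2.94) and the immunoglobulin kappa locus entry IGK (−3.49), whose segments resemble each other. By mean CPM the 5 largest gains included HNRNPU, an RNA-binding scaffold of the nucleus (1142 ± 94.8 to 1863 ± 158; 0.71), and the 5 largest losses RPL4 (4653 ± 252 to 3929 ± 405; −0.24).

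The parental line, which keeps its own SARS2, was compared without against with the drug, and shares no library with the comparison above. Its labels give no days without doxycycline, so the 2 comparisons may differ in time off the drug as well as in line. The test of the difference cannot separate these. There 8519 genes passed (39.4%), 4540 higher (21%) and 3979 lower (18.4%). The test of the difference between the 2 changes passed for 11176 genes (51.7%), 5272 more positive in the engineered line (24.4%) and 5904 more negative (27.3%). Of the 4877 rises at day 9, 516 (10.6%) also rose in the parental line and 2134 (43.8%) fell there. Of the 5150 falls, 252 (4.89%) also fell and 2249 (43.7%) rose. All 4383 genes that passed in opposite directions also passed the test of the difference. That outcome was close to fixed, because for them the difference adds 2 changes that had each passed. These shares rest on the labels of the day 9 and doxycycline libraries, which SARS2 goes against. With the sign of the day 9 change turned, the counts of 4383 and 768 would swap by arithmetic alone. The ATF4 stress list, with medians of 1.01 at day 9 and 0.83 in the parental line, would then go opposite ways. Whether any labels were exchanged was not tested.

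The gene groups compared in different ways with the parental line. The ATF4 stress list had 18 of 21 members higher in the parental line without the drug as well (median 0.83). By the test of the difference, 5 members were more positive and 4 more negative in the engineered line. Of the 14 amino acid transporters, 7 rose and 1 fell in the parental line (median 0.19), and 7 were more positive and 1 more negative in the engineered line. Of the 16 synthesis genes, 8 rose and 0 fell there (median 0.28), and 6 were more positive and 5 more negative. CHAC1 rose in the parental line too (1.92 ± 0.13, adjusted p = 2.49e-08), and the difference between the lines did not pass (0.18 ± 0.18, adjusted p = 0.411). Of the ERK genes, 2 rose and 3 fell in the parental line, and 13 of 17 were more positive in the engineered line. DUSP6 was at 0.358, 0.284 and 0.27 CPM without and 0.157, 0.302 and 0.147 with the drug in the parental line (0.57 ± 0.43, adjusted p = 0.305), and its change differed by 2.98 ± 0.55 (adjusted p = 0.00015). ETV4 differed by 1.97 and SPRY4 by 4.56 (adjusted p = 4.47e-07 and 0.0152).

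All 6 metallothionein list members tested were more positive in the engineered line. MT2A was at 19.6, 20.3 and 19.2 CPM without and 22, 23.2 and 24.6 with the drug in the parental line (−0.24 ± 0.10, adjusted p = 0.06). Of the cholesterol genes, 7 rose and 4 fell there, and 15 of 23 were more negative in the engineered line; INSIG1 differed by −2.49 ± 0.29. Of the HIF targets, 13 of 18 rose in the parental line (median 0.55), and 11 were more negative in the engineered line. Of the ribosome biogenesis genes, 31 of 33 fell in the parental line and 32 were more positive in the engineered line. RRP12 was at 35.4, 38 and 38.1 CPM without and 53.8, 53.2 and 60 with the drug in the parental line (−0.58 ± 0.13, adjusted p = 0.00154). POU5F1 rose in the parental line (0.66) and fell at day 9. With library size alone as the scaling, the median difference of all genes moved from −0.04 to −0.14, and changes are to be read relative to that.

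The direction of change differed with the length of the gene on the genome, introns included. Among 2634 genes of 5 to 10 kb, 30.5% rose and 17% fell, with a median of 0.12. Among 993 genes of 200 to 500 kb 8.26% rose and 54.1% fell, and among 260 genes over 500 kb 5.77% and 60.4% (median −0.64). In the parental line the medians ran the other way, from −0.059 at 5 to 10 kb to 0.11 over 500 kb. So did those of the engineered line labelled day 6 against the same doxycycline libraries, from −0.069 to 0.23. With the trend over span and length removed in the fit, 13 ERK genes and 16 ATF4 stress genes rose, 17 cholesterol genes fell, and replication rises went from 26 to 21. Of 307 named genes other than SARS2 that passed, 288 passed in the same direction with the trend removed.

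**Figure D5:**
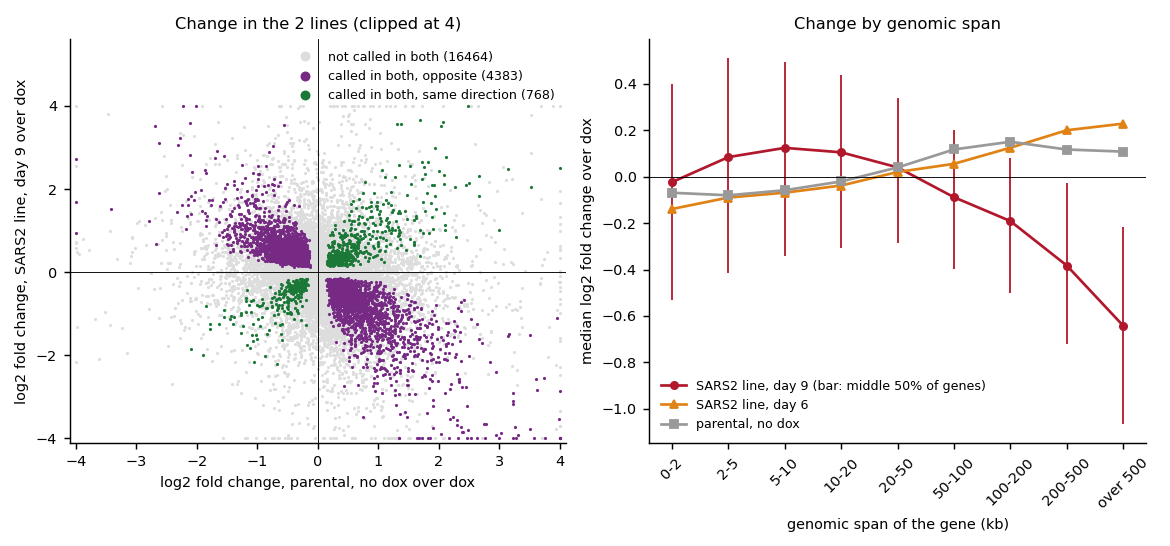
Left, log2 fold change at day 9 against doxycycline in the engineered line over the change without against with doxycycline in the parental line, 1 point per gene tested and clipped at 4, with genes that passed in both coloured by whether the directions were the same; right, median log2 fold change by genomic span (kb) at day 9 (bars, middle 50% of genes), at day 6 and in the parental line. With the labels as given, which SARS2 goes against, opposite directions hold 4383 genes and the same direction 768 (the reverse with the sign of the day 9 change turned), and the medians over 500 kb are −0.64 at day 9 and 0.11 in the parental line.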

How the data were processed

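The authors deposited tables of whole-number read counts per gene for 18 RNA libraries, with no normalization, per the file headers and the values. Per the submitters' processing notes, featureCounts of Subread, HISAT2, cutadapt 2.3, SAMtools and DESeq2 were among the tools, and the build was GRCh38. Column headers carry the letters RF. The strand setting, the annotation release and the reason for the zero counts of the mitochondrial chromosome are not stated there. Samples were grouped by their labels into 6 groups of 3. Broken lines of 16 genes were rejoined, and the 6 libraries present in 2 tables were identical in both.

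From the counts, genes were filtered with filterByExpr by group, scaled with TMM and fitted in edgeR 4.0.16 (R 4.3.3) by a quasi-likelihood model with 1 mean for each of the 6 groups, which share an estimate of the spread (12 residual degrees of freedom). Contrasts were day 9 minus doxycycline in the engineered line, no drug minus drug in the parental line, and the difference of these. SE is the size of the log2 fold change over the root of F. Counts were simulated with 200 changed genes and the same spread for all genes. On these, the fit of day 9 against doxycycline over 21615 genes recovered 39% of genes changed by 0.5 (log2) and 100% of those changed by 1. It called 3 unchanged genes. Alternatives were another scaling (RLE, library size alone), other filters, DESeq2 1.42.0, 6 libraries only, a replicate block, the span and length trend removed, and each library left out.

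The members and the gene lists were chosen with earlier results of these data known. Genes were named by rule: SARS2 and its neighbours; the 15 largest rises and falls among genes that passed, with a mean of at least 2 CPM and no overlap; up to 5 members of each list with the smallest adjusted p in each direction, and every member of lists with at most 12; and the 5 largest gains and losses in mean CPM. Others were named after their values were seen, as said where they are described. SLC7A11, FGF21, ATF3, ATF4, HSPD1 and HSPE1 were also among the genes added in this way. Some genes are not reported here, though they are counted among the genes tested and the lists. Promoter windows and their sequences come from RefSeq (GRCh38.p14). Reads of near-identical, overlapping or antisense genes may be split between them.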

Additional observations from a re-analysis of the deposited data

Results flagged for a closer look

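Results are given here because the change at day 9 in the engineered line differed from the change without against with doxycycline in the parental line, by the test of the difference in the same edgeR fit (adjusted p under 0.05). Over all genes this held for 11176. SARS2 itself differed by 0.94 on the log2 scale, rising at day 9 (0.79) where the parental line gave −0.15.

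Of the 30 genes with the largest changes, 29 differed in this way. They were chosen by the day 9 change, which is 1 term of the difference, so this count is a description; of all rises and falls at day 9, 78.9% and 82.8% differed. Among the rises, SMIM11 differed by 3.81, DOK3 by 4.10, LOC124903631 by 3.79, PRR22 by 3.71, TPH1 by 3.53, MIR22HG by 3.41 and AMH by 3.36. INHBE, which also rose in the parental line, differed by 1.98, and the ERK-induced genes DUSP6 and ETV5 by 2.98 and 2.23. PRKXP1 differed by 3.11, LOC399975 by 3.09, LOC105379384 by 2.93 and CAPN3 by 2.39. The exception was NHSL1-AS1, at 2.43 at day 9 and 2.01 in the parental line (difference 0.42, adjusted p = 0.198).

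Among the falls, MVP differed by −5.14, going from 2.34, 1.99 and 1.69 CPM with to 8.8, 9.03 and 13.6 without the drug in the parental line. LINC00663 differed by −4.81, LOC124906082 by −4.78, LOC112268113 by −6.24, LOC124906098 by −4.27 and LOC105377548 by −3.36. IGK and PNCK each differed by −4.23, PADI2 by −3.74, CELF5 by −3.56, OLMALINC and TJP3 each by −3.47, SYT1 by −3.18 and the smooth muscle gene LMOD1 by −3.04. For all 15 falls the parental change was above 0.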

How the results depend on the processing

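The counts of genes that passed, in each comparison and direction, and the change of SARS2 stayed within 1.5 times and on the same side of 0 and of the threshold under every alternative that was run. For day 9, 4184 to 5144 genes rose and 4117 to 5903 fell over the settings that keep all 6 libraries, and 4130 to 4852 rose and 4366 to 5285 fell with 1 library left out. SARS2 ranged from 0.66 with the span and length trend removed to 0.92 without day 9 replicate 2. Of 308 named genes that passed, 257 passed in the same direction in every alternative that tested them, which was all 14 for most. The call was lost in at least 1 alternative for 51. Of 23 that did not pass, 17 passed in at least 1. Most named genes were picked for a small adjusted p or a large change, so these shares do not describe calls in general. HK1, an enzyme of glycolysis (0.00024 in place of −0.15), and NDUFS4, of complex I (0.036 in place of −0.27), turned positive with the span and length trend removed. LOC124900647, at −7.30, gave −8.20 without day 9 replicate 1 and 0.63 without doxycycline replicate 3, the library that holds nearly all its counts. Medians kept their sign in 34 of 39 lists with tested members, and not for complexes II to V, interferon genes, nuclear RNAs and the haematopoietic and epithelial markers. Of 78 counts of members that rose or fell, 32 moved by over 1.5 times under a setting that keeps all 6 libraries. With library size alone, 5 genes upstream of ATF4 rose, 4 NRF2 targets, 15 mitosis and 37 cytosolic ribosome genes fell, and 2 genes each fell among amino acid carriers, cytosolic tRNA synthetases and mitochondrial chaperones. With the trend removed, 2 mitochondrial chaperone and 2 complex I genes fell. With 6 libraries alone, 9 cytosolic ribosome, 3 genes upstream of ATF4, 1 interferon and 1 neighbour gene fell. DESeq2 gave 4 rises each for HIF and MondoA targets, the filter of 1 CPM gave 4 falls for complex I, and no filter 4 rises for small nucleolar RNA host genes. The cause of the other shifts was not tested. Between day 9 and doxycycline libraries of the same replicate number, deviations from the group means correlated by 0.00015, −0.0047 and 0.070 across genes, so the numbers were not taken as pairs; with a replicate block 4703 genes rose, 4955 fell and SARS2 gave 0.78. In the simulated counts, changes of 0.5 (log2) were often missed, but few genes changed there and all shared the same spread. In the data 46.4% of genes passed, so the simulated share need not hold for them.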

Other observations

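LOC124900647, a gene named after its values were seen, was at 0.0448, 1.89 and 703 CPM in doxycycline replicates 1, 2 and 3 and at 2.92, 0 and 1.56 in the libraries labelled day 9, so that a single library carries its change of −7.30 (log2). RN7SK, a small nuclear RNA that holds the elongation factor P-TEFb and was also named after its values were seen, was at 6.35, 11.3 and 20.9 CPM at day 9 and 35.1, 30.7 and 25.9 with doxycycline (−1.25 ± 0.48, adjusted p = 0.0384 by edgeR), a call lost at −0.92 without day 9 replicate 1, −1.16 without day 9 replicate 2, −1.14 without doxycycline replicate 1 and −1.24 without doxycycline replicate 2. By DESeq2 the call was lost at −1.24.

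By kind of gene, 13.7% of 4137 long non-coding RNA genes rose and 24% fell (median −0.17), against 27.7% and 26% of 14316 protein-coding genes (median 0.013). By chromosome, the median change ran from −0.20 over 312 genes of chromosome 18 to 0.14 over 942 genes of chromosome 16. On chromosome 19, which holds SARS2, 30.4% of 1388 genes rose and 18.6% fell (median 0.11). These shares are over genes, which are not independent replicates.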
